A study of Mus musculus with 16 samples.

Results

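The genes described here are the Wnt ligands, their Frizzled receptors and co-receptors, and the secreted proteins that tune them, in the dorsal hippocampus of the mouse. Members were the protein-coding genes named Wnt or Fzd with a number, the Sfrp, Dkk and R-spondin (Rspo) genes, Lrp5, Lrp6 and Porcn. They came to 44 of the 35328 genes in the deposited table. There were 19 ligands, 10 Frizzled receptors, 2 co-receptors, 4 Sfrp inhibitors, 4 Dkk proteins, 4 R-spondins and Porcn. RNA-Seq was carried out on 16 male C57Bl6/J mice, 4 in each of 4 groups, which differed in what the mice drank and in whether they had learned a task. Caffeine mice drank water with 0.3 g/L caffeine for 2 weeks from 8 to 9 weeks of age, and control mice drank plain water. Learning mice were trained for 3 days in the Morris water maze (MWM), a task in which a mouse finds a hidden platform by its surroundings, and tissue was taken 1 hour after the last session. Home cage mice rested. Because home cage mice did not swim, spatial learning, swimming and handling cannot be told apart. Caffeine was given in drinking water, so the dose per mouse was set by how much it drank. Mice are named below by group and animal number.

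Wnt proteins are lipid-modified ligands that need the enzyme Porcn for their acylation and release. They bind Frizzled receptors, alone or with Lrp5 or Lrp6, and pass the signal to β-catenin and TCF/LEF factors or to the planar polarity branch. Sfrp proteins hold Wnt ligands outside the cell, Dkk proteins act mostly on the co-receptors, and R-spondins raise Wnt responses by sparing Frizzled receptors from removal. In the adult hippocampus the pathway is known for its part in the birth of dentate granule neurons and in the making and upkeep of synapses.

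Each library held between 23078094 and 49949281 counts (median 36437284.5), with 3.23 to 4.49% in mitochondrial genes. Markers of dentate granule, CA1 and CA3 neurons were all detected. Their sums varied between mice, from 425 to 752 CPM for dentate granule, 396 to 723 for CA1 and 259 to 461 for CA3 markers. A few libraries stood apart. Choroid plexus markers, 12 genes of the tissue that makes cerebrospinal fluid and lies against the hippocampus, summed to 315 to 2416 CPM (counts scaled to the size of the library) in home cage water mice, 199 to 516 in home cage caffeine, 169 to 447 in learning water and 120 to 211 in learning caffeine mice, with the highest value in home cage water 20. Home cage caffeine 17 had the highest mitochondrial share. Learning water 24 had 11735 CPM over 6 oligodendrocyte markers against 5043 to 5814 in the other learning water mice. The calls described gene by gene are also given without these 3 libraries, a choice made after seeing the data. Learning caffeine 22 was kept in those fits, although its oligodendrocyte and CA3 marker sums (6860 and 443 CPM) also lay above those of its group (4897 to 5082 and 352 to 358). In bulk tissue, fewer cells of a type and less RNA per cell cannot be told apart.

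Promoter sequence was looked at for 3 members, Wnt9a, Fzd5 and Fzd1. Each was called in the learning response averaged over both drinks with any 1 library left out (values below). Each also had an entry in the RefSeq promoter table. Each line gives the 250 bases before the RefSeq start in build GRCm38.p6, 5′ to 3′ on the strand of the gene, with capitals for any motif match. The windows were chr11:59306680-59306929 on the plus strand for Wnt9a, chr1:64737751-64738000 on the minus strand for Fzd5 and chr5:4758217-4758466 on the minus strand for Fzd1.
Wnt9a: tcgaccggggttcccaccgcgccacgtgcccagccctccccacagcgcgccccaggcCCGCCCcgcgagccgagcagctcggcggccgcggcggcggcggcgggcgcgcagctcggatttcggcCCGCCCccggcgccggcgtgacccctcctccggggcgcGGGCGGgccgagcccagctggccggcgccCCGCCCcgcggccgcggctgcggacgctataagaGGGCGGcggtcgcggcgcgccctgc
Fzd5: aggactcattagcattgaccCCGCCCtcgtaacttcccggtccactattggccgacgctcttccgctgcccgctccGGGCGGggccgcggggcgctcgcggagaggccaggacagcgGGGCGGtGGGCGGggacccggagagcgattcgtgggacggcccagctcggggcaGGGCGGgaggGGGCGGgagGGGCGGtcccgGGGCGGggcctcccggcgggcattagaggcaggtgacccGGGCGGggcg
Fzd1: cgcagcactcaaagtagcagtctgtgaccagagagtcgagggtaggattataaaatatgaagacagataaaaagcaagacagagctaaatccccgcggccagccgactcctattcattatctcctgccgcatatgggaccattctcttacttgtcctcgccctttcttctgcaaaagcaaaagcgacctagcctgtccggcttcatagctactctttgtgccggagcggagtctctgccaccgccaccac
The capitals are all GC boxes (GGGCGG on either strand). There were 5 in the Wnt9a window and 9 in the Fzd5 window, and none in the Fzd1 window. The G and C content was 84.4% for Wnt9a, 76.4% for Fzd5 and 51.2% for Fzd1, against a median of 52.4% over 32851 mouse promoters. The Fzd1 window stopped at 4758217, upstream of the gene start in the GENCODE annotation (4758035). Those of Wnt9a and Fzd5 reached their gene starts, so the windows were not alike in position. A GC box lay in 32.7% of all promoters and in 21 of the 30 promoters of the 27 members matched to the table (20 members). Motifs of factors linked to neuronal activity or to Wnt signalling were also searched on both strands, and none was found in the 3 windows: TGACGTCA (the cyclic AMP response element, 1.55% of all promoters), TGANTCA (AP-1, 6.75%), GCGTGGGCG (EGR, 0.536%, whose last 5 letters are the first 5 of the GC box) and CTTTGAT (TCF/LEF, 3.21%). Among the 27 matched members these were found in 0, 1, 1 and 2 promoters, respectively. These matches describe letters in the windows and are not measured binding sites.

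To ask which Wnt genes the dorsal hippocampus expressed, levels were compared per kb of exon (CPM per kb), as averages over the 16 mice. A total of 38 members had enough counts to be tested, and 20 of them averaged above 1 CPM per kb. The 6 that did not pass the count filter were Wnt1, Wnt2b, Wnt8a, Dkk1, Dkk4 and Rspo4, with totals of 5, 75, 8, 12, 2 and 12 counts over all libraries. Among the 16 tested ligands the highest level was that of Wnt7b at 7.81 CPM per kb, then Wnt7a at 3.74, Wnt9a at 3.15, Wnt2 at 2.77, Wnt4 at 2.40, Wnt5a at 1.36 and Wnt10a at 1.19. The other 9 tested ligands lay between 0.104 (Wnt8b) and 0.823 (Wnt5b). Wnt7b, a ligand that acts through β-catenin and also promotes dendrite growth, made up 26.6 to 34.7% of the summed level of the 19 ligands in each library (median 30.9%). Wnt7a, a ligand known for building presynaptic terminals, made up 10.4 to 20.7% and Wnt9a 5.05 to 20.9%.

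**Figure D1:**
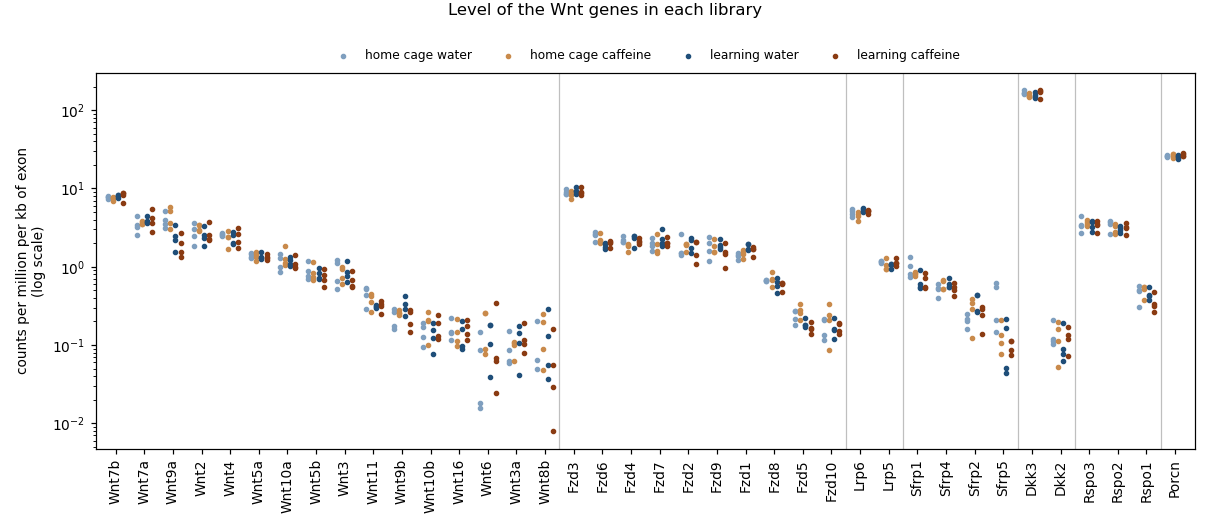
Level of each of the 38 tested Wnt genes in each of the 16 libraries, in CPM per kb of exon on a log scale, with colours for the 4 groups and grey lines between ligands, Frizzled receptors, co-receptors, Sfrp inhibitors, Dkk proteins, R-spondins and Porcn; the 1 library with no Wnt8b count is not drawn. Dkk3 averaged 161 and Porcn 26.2, while the ligands ran from 0.104 (Wnt8b) to 7.81 (Wnt7b).

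Among the receptors, Fzd3, which guides axons through the planar polarity branch, stood highest at 8.94 CPM per kb and made up 39.0 to 45.5% of the summed Frizzled level in each library. Fzd6, its closest relative, followed at 2.15, with Fzd4 at 2.10, Fzd7 at 2.05, Fzd2 at 1.79, Fzd9 at 1.75 and Fzd1 at 1.57, and the lowest was Fzd10 at 0.179. The co-receptor Lrp6 averaged 4.95 CPM per kb and Lrp5 1.10. Dkk3, a divergent Dkk that is abundant in forebrain neurons, averaged 161 CPM per kb and made up 98.3 to 99.2% of the summed level of the 8 Sfrp and Dkk genes. The Sfrp genes were far lower, at 0.773 for Sfrp1, 0.561 for Sfrp4, 0.271 for Sfrp2 and 0.182 for Sfrp5. Rspo3 averaged 3.47, Rspo2 3.16, Rspo1 0.441 and Porcn 26.2 CPM per kb. Levels varied least across the 16 mice for Porcn, with a coefficient of variation of 4.14%, followed by Wnt7b at 7.58% and Dkk3 at 7.93%. The largest coefficients were those of the low genes Sfrp5 (91.9%), Wnt8b (85.9%) and Wnt6 (80.6%). For Wnt9a the coefficient was 42.7% over all mice and 29.3% within groups.

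To address whether learning changed Wnt gene expression, learning mice were compared with home cage mice under each drink and as the average of both. All genes were fitted in one edgeR quasi-likelihood model of the 16 libraries, and a gene was called at a Benjamini-Hochberg adjusted p under 0.1 over 17830 genes. Under water, 1 of the 38 tested members fell (Fzd6) and none rose, where 0.331% of all genes were called lower and 0.639% higher. At an unadjusted p under 0.05 there were 5 lower and 3 higher members, where 5.65 and 6.11% of all genes were. Under caffeine, 2 members fell (Wnt9a and Fzd5) and none rose, where 2.13% of all genes were called lower and 3.16% higher, and at an unadjusted p under 0.05 there were 3 lower and 2 higher, where 9.47 and 9.35% of all genes were. In the average learning response 5 members fell (Wnt9a, Fzd5, Fzd6, Sfrp1 and Sfrp5) and 1 rose (Fzd1), where 6.71% of all genes were called lower and 7.81% higher. The average uses the same libraries as the other 2 comparisons and is no independent check of them. The groups did not overlap for 4 members under water and 2 under caffeine, where 6.99 and 10.9% of all genes did not overlap. The median log2 fold change of the members was -0.03 under water, -0.18 under caffeine and -0.06 on average, against -0.01 for all genes in each. Under caffeine 24 of the 38 members had a fold change below 0.

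Wnt9a, a ligand of the β-catenin branch, carried the largest called response. Its levels were 13.1, 10.3, 17.4 and 11.8 CPM in home cage water mice 6, 8, 11 and 20, and 5.17, 7.33, 8.30 and 11.2 in learning water mice 24, 33, 36 and 38. They were 10.1, 11.9, 19.2 and 16.9 CPM in home cage caffeine mice 2, 9, 14 and 17, and 5.12, 6.75, 4.41 and 8.98 in learning caffeine mice 22, 27, 30 and 40. Under caffeine every learning mouse lay below every home cage mouse, and under water only learning water 38 reached into the home cage range. Counts behind these levels ran from 192 to 678. In edgeR the log2 fold change was -1.21 under caffeine (SE 0.25, adjusted p = 0.0191), -0.73 under water (SE 0.25, adjusted p = 0.248) and -0.97 on average (SE 0.18, adjusted p = 0.00367). Wnt9a thus stood at 0.432 of its home cage level under caffeine and at 0.605 under water. The caffeine and average calls held without any 1 library, with adjusted p of at most 0.0685 and 0.0108, and without the 3 libraries that stood apart (log2 fold change -1.13 and -0.87, adjusted p = 0.0368 and 0.0159). The 2 responses differed by -0.49 (SE 0.36, 95% interval -1.24 to 0.26, unadjusted p = 0.191, adjusted p = 0.99997), so a difference between drinks was not shown. The gene lies at chr11:59306928-59333552 on the plus strand in mm10 coordinates, with no exonic overlap.

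Some markers of neighbouring cells moved in the same comparison. Under caffeine, 3 of 10 thalamus markers (Plekhg1, Zic1 and Zic4) fell after learning and the others were not called. In the average learning response, 1 marker of this list rose (Lhx9) and 1 fell (Plekhg1). The thalamus sum was 161 to 209 CPM in home cage caffeine and 154 to 164 in learning caffeine mice. No marker of this list was at 0 in all libraries. None of 12 choroid plexus markers was called under caffeine and 11 of 12 were lower in the average. Of 6 astrocyte markers, 1 (Gfap) was called lower under caffeine and in the average. No dentate granule, CA1 or CA3 marker was called under caffeine, and 1 CA1 marker (Wfs1) was called lower in the average. Within both learning groups the mice had the same order for Wnt9a as for the dentate granule sum, but not within the home cage groups. The part of these cells in the Wnt9a response was not tested.

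**Figure D2:**
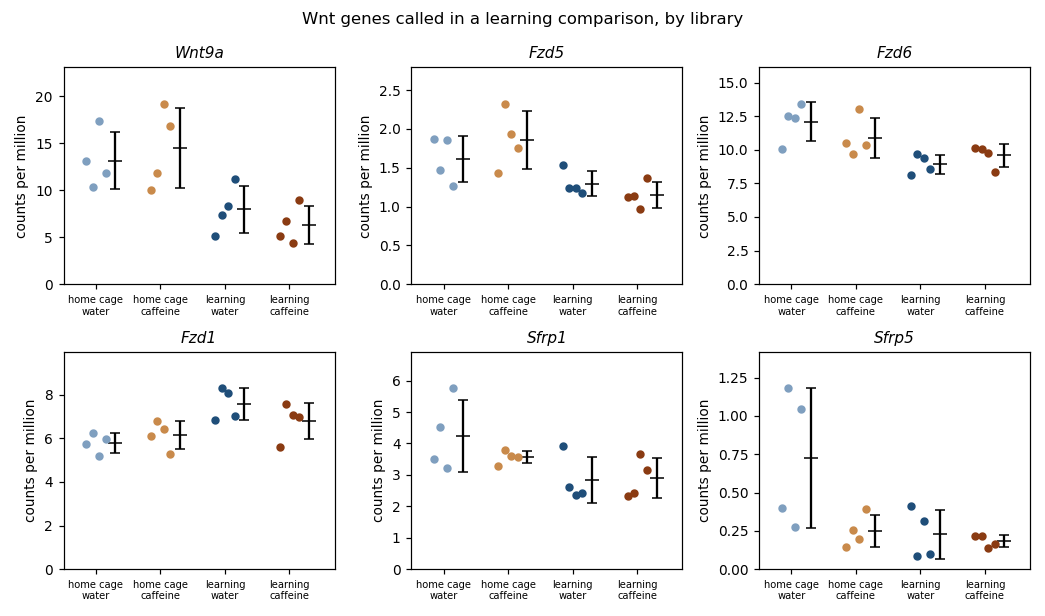
CPM of the 6 Wnt genes called in a learning comparison, with 1 point per mouse, and beside each group its mean with bars of 1 SD (n = 4). Wnt9a lay between 4.41 and 8.98 in learning caffeine mice and between 10.1 and 19.2 in home cage caffeine mice, whereas Sfrp5 was high in only 2 home cage water mice.

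The other 15 tested ligands were not called in any comparison of all 16 libraries, while Wnt11 was called in the average without the 3 libraries that stood apart. Wnt7b was at 37.9, 37.9, 39.1 and 36.3 CPM in home cage water, 34.1, 37.0, 38.4 and 37.1 in home cage caffeine, 38.8, 40.7, 36.6 and 40.6 in learning water and 31.9, 39.9, 42.9 and 42.8 in learning caffeine mice. The groups overlapped, and the average learning response was 0.08 on the log2 scale (95% interval -0.04 to 0.19, adjusted p = 0.390 by edgeR). Wnt7b shares exonic bases with AU022754 on the other strand, which had 1194 counts in all against 22145 for Wnt7b. Wnt7a was at 10.7, 14.02, 10.2 and 8.06 CPM in home cage water, 12.1, 11.2, 11.3 and 11.8 in home cage caffeine, 11.9, 14.1, 11.6 and 12.0 in learning water and 8.82, 11.6, 17.2 and 13.3 in learning caffeine mice, also with overlap, and its average response was 0.18 (95% interval -0.07 to 0.42, adjusted p = 0.367). Intervals were far wider for the lowest ligands, such as Wnt8b, whose response under caffeine was -1.18 (95% interval -2.84 to 0.49), so changes of such size were not detectable there.

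Of the 10 Frizzled receptors, 1 rose and 2 fell in the average learning response, and their median log2 fold change was -0.05. Fzd6, a planar polarity receptor, was at 10.1, 12.5, 12.4 and 13.4 CPM in home cage water mice and 8.15, 9.66, 9.36 and 8.53 in learning water mice. It was at 10.5, 9.69, 13.03 and 10.4 CPM in home cage caffeine mice and 10.1, 10.0, 9.79 and 8.35 in learning caffeine mice. Under water the groups did not overlap, while under caffeine they did. In edgeR the log2 fold change was -0.44 under water (SE 0.11, adjusted p = 0.0843), -0.19 under caffeine (SE 0.11, adjusted p = 0.349) and -0.31 on average (SE 0.08, adjusted p = 0.0176). The difference between the responses was 0.25 (95% interval -0.06 to 0.57, unadjusted p = 0.107), so it was not shown. The water call held in only 5 of 16 fits without 1 library. It ended without home cage water 8, 11 or 20, home cage caffeine 2, learning water 24, 33, 36 or 38, or learning caffeine 22, 27 or 30, with adjusted p from 0.101 to 0.268, and without the 3 libraries that stood apart (adjusted p = 0.317). The average call held in all 16 fits and without the 3 libraries (-0.28, adjusted p = 0.0680).

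Fzd5, a receptor found at synapses of young hippocampal neurons, was at 1.43, 2.33, 1.93 and 1.76 CPM in home cage caffeine mice and 1.12, 1.13, 0.963 and 1.36 in learning caffeine mice. It was at 1.87, 1.47, 1.86 and 1.26 CPM in home cage water mice and 1.53, 1.24, 1.24 and 1.17 in learning water mice. The caffeine groups did not overlap, and the water groups did. These levels rest on 36 to 68 counts per library. In edgeR the log2 fold change was -0.69 under caffeine (SE 0.18, adjusted p = 0.0545), -0.30 under water (SE 0.19, adjusted p = 0.553) and -0.49 on average (SE 0.13, adjusted p = 0.0286). The caffeine call held in 12 of 16 fits without 1 library and ended without home cage caffeine 9 or 17 or learning caffeine 22 or 30 (adjusted p from 0.102 to 0.161). The average call held in all 16 fits. Without the 3 libraries that stood apart both were called, at -0.71 under caffeine (adjusted p = 0.0811) and -0.60 on average (adjusted p = 0.0263). The difference between the responses was -0.39 (95% interval -0.94 to 0.16, unadjusted p = 0.151). Fzd5 lies at chr1:64730558-64737751 and Fzd6 at chr15:39006034-39038188 in mm10 coordinates. Both share exonic bases with a gene on the other strand, Gm38058 (81 counts in all against 826 for Fzd5) and Gm26704 (142 against 5957 for Fzd6). Since the strand setting of the counting is not given in the sources used here, how far these overlaps affect the levels of Fzd5 and Fzd6 is not known.

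Fzd1, a receptor of the β-catenin branch, was the 1 member that rose. It was at 5.76, 6.24, 5.17 and 5.99 CPM in home cage water mice and 6.84, 8.29, 8.09 and 7.003 in learning water mice, with no overlap. It was at 6.11, 6.81, 6.41 and 5.30 CPM in home cage caffeine mice and 5.62, 7.56, 7.06 and 6.98 in learning caffeine mice, where learning caffeine 22 lay within the home cage range. In edgeR the log2 fold change was 0.27 on average (SE 0.08, adjusted p = 0.0453), and this call held in all 16 fits without 1 library and without the 3 libraries that stood apart (0.27, adjusted p = 0.0749). It was 0.38 under water (SE 0.11, adjusted p = 0.160) and 0.15 under caffeine (SE 0.11, adjusted p = 0.480), and neither was called. Fzd1 lies at chr5:4753839-4758035 on the minus strand in mm10 coordinates.

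The most abundant receptor, Fzd3, did not pass the test. It was at 108, 125, 114 and 107 CPM in home cage water, 106, 112, 118 and 93.6 in home cage caffeine, 110.1, 117, 120.2 and 132 in learning water and 111, 106, 117 and 133 in learning caffeine mice. The groups overlapped, and the average learning response was 0.10 (95% interval -0.02 to 0.22, adjusted p = 0.296). Fzd4, which also serves as the receptor for norrin in blood vessels, was at 11.7, 15.8, 16.4 and 16.7 CPM in learning water mice and 13.9, 15.5, 13.2 and 14.3 in learning caffeine mice, and its average response was 0.13 (95% interval -0.03 to 0.29, adjusted p = 0.287). It was called in the average without the 3 libraries that stood apart. The co-receptor Lrp6 was at 58.3, 74.6, 70.5 and 65.2 CPM in home cage water, 60.3, 65.3, 67.9 and 52.3 in home cage caffeine, 69.3, 70.9, 73.7 and 77.0 in learning water and 70.2, 64.9, 71.4 and 71.8 in learning caffeine mice. Its average response, 0.15 (SE 0.06, adjusted p = 0.109), lay just outside the threshold, and it was called by DESeq2. Lrp5 was at 11.6, 11.4, 11.3 and 10.8 CPM in home cage water and 10.5, 10.2, 9.15 and 10.7 in learning water mice, without overlap, but at 9.09, 12.4, 10.1 and 9.10 in home cage caffeine and 10.8, 10.9, 12.5 and 10.0 in learning caffeine mice. Its log2 fold change was -0.16 under water (adjusted p = 0.548) and 0.13 under caffeine (adjusted p = 0.486).

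**Figure D3:**
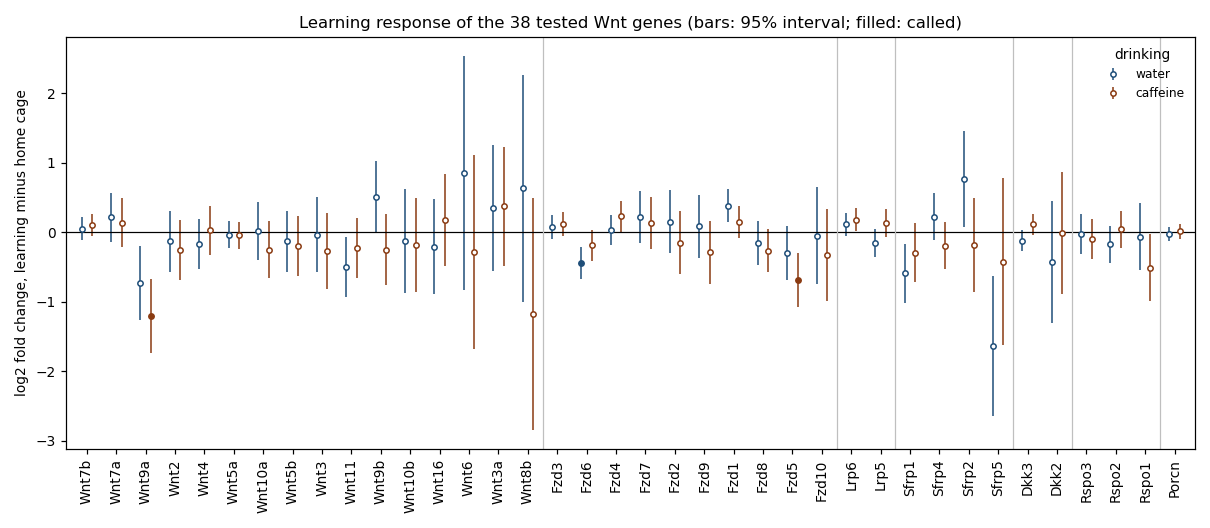
Learning response of each of the 38 tested Wnt genes under water (blue) and caffeine (brown), as a log2 fold change (learning over home cage) with its 95% interval, grouped by role as in the plot of levels. Filled points mark the calls, Fzd6 under water (-0.44) and Wnt9a (-1.21) and Fzd5 (-0.69) under caffeine, and the widest intervals belong to the low genes Wnt6, Wnt8b and Sfrp5.

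Porcn, the acyltransferase of the Wnt ligands, was measured most precisely and was not called. It was at 77.5, 76.3, 77.8 and 80.1 CPM in home cage water, 82.0, 74.5, 78.5 and 82.8 in home cage caffeine, 79.6, 76.3, 78.6 and 71.0 in learning water and 81.5, 83.9, 78.3 and 77.2 in learning caffeine mice. Its average learning response was -0.01 with a 95% interval of -0.08 to 0.07. None of the 3 tested R-spondins was called. Rspo3 was at 13.7, 10.6, 10.2 and 8.44 CPM in home cage water, 10.8, 10.2, 12.1 and 11.6 in home cage caffeine, 8.58, 9.97, 11.95 and 11.5 in learning water and 8.45, 10.9, 11.9 and 10.5 in learning caffeine mice. Rspo2 was at 19.2, 13.3, 17.8 and 19.6 CPM in home cage water, 16.8, 13.3, 14.3 and 17.7 in home cage caffeine, 13.8, 17.02, 16.2 and 15.1 in learning water and 13.1, 16.6, 18.7 and 15.8 in learning caffeine mice. For both ligands the groups overlapped, and the average learning response was -0.06 (95% interval -0.26 to 0.14 for Rspo3 and -0.25 to 0.13 for Rspo2). Rspo1 was at 0.595, 0.956, 0.965 and 1.101 CPM in home cage water, 0.994, 1.08, 1.08 and 0.725 in home cage caffeine, 1.08, 0.730, 0.830 and 0.847 in learning water and 0.506, 0.921, 0.602 and 0.655 in learning caffeine mice. Its average response was -0.29 (95% interval -0.63 to 0.05), with the lowest group mean in learning caffeine mice, 0.671 ± 0.178 CPM (SD, n = 4), against 0.969 ± 0.167 in home cage caffeine mice.

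Of the secreted inhibitors, Sfrp1 and Sfrp5 fell in the average learning response. Sfrp1 was at 3.49, 4.52, 3.20 and 5.75 CPM in home cage water, 3.30, 3.79, 3.60 and 3.57 in home cage caffeine, 3.91, 2.61, 2.36 and 2.41 in learning water and 2.32, 2.42, 3.67 and 3.16 in learning caffeine mice. Sfrp5 was at 0.397, 1.18, 0.276 and 1.05 CPM in home cage water, 0.145, 0.259, 0.199 and 0.391 in home cage caffeine, 0.412, 0.0843, 0.311 and 0.0977 in learning water and 0.213, 0.214, 0.140 and 0.164 in learning caffeine mice. Home cage water 8 and 20 stood above all the other mice in both genes, and the groups overlapped. In edgeR the average response was -0.44 for Sfrp1 (SE 0.14, adjusted p = 0.0646) and -1.03 for Sfrp5 (SE 0.37, adjusted p = 0.0959), where Sfrp5 rests on 3 to 39 counts per library. Neither gene was called under water (-0.59 and -1.63, adjusted p = 0.241 and 0.161) or under caffeine (-0.29 and -0.42, adjusted p = 0.446 and 0.724) alone.

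The Sfrp calls lay near the threshold and did not hold in all fits without 1 library. The Sfrp1 call held in 10 of 16 such fits. It ended without home cage water 20, learning water 33, 36 or 38, or learning caffeine 22 or 27 (adjusted p from 0.103 to 0.147). The Sfrp5 call held in only 5 of 16 such fits, and ended without home cage water 8 or 20, home cage caffeine 9 or 17, learning water 33, 36 or 38, or any 1 learning caffeine mouse (adjusted p from 0.107 to 0.229). Choroid plexus markers followed both genes in some mice only. Their sums were 315, 1192, 955 and 2416 CPM in home cage water mice 6, 8, 11 and 20, so that the highest 2 were the mice with the highest Sfrp1 and Sfrp5. Home cage water 11, at 955, had the lowest Sfrp1 (3.20 CPM) and Sfrp5 (0.276 CPM) of its group. Of these 12 markers, 11 fell in the average learning response (all but Prlr) and 6 fell under water, and none was at 0 in all libraries. Without the 3 libraries that stood apart, home cage water 20 among them, Sfrp1 was still called (-0.45, adjusted p = 0.0560) and Sfrp5 was not (-0.97, adjusted p = 0.188). The part of choroid plexus tissue in these results was not tested.

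**Figure D4:**
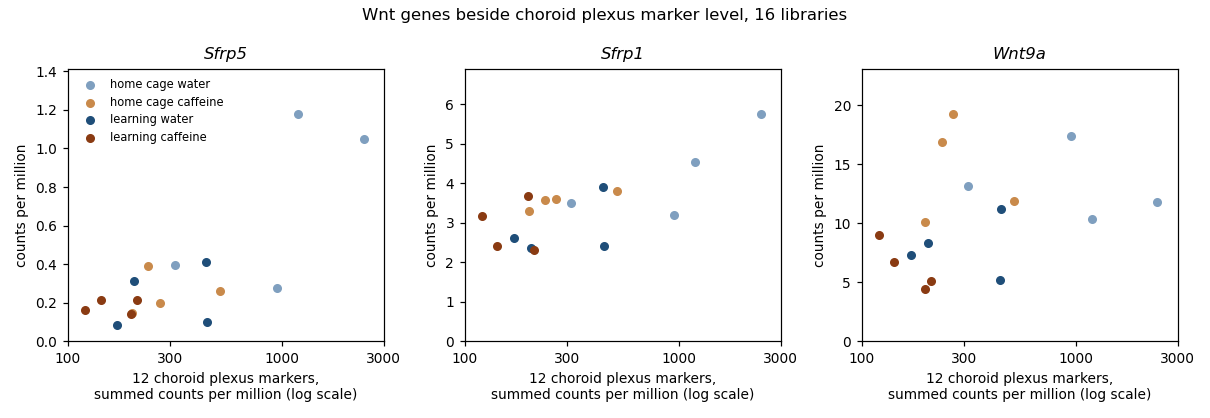
CPM of Sfrp5, Sfrp1 and Wnt9a in each of the 16 mice against the summed CPM of 12 choroid plexus markers (log scale), coloured by group. The 2 mice with the highest marker sums, home cage water 8 (1192) and 20 (2416), had the highest Sfrp5 and Sfrp1, and lay within the range of the other home cage mice for Wnt9a. Home cage water 11 (955) had the lowest Sfrp5 and Sfrp1 of its group.

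Dkk3, the most abundant member, was at 600.3, 554, 549 and 558 CPM in home cage water, 562, 507, 492 and 506 in home cage caffeine, 519.7, 571, 501 and 485 in learning water and 606, 585, 576 and 472 in learning caffeine mice. The groups overlapped, and the average learning response was 0.00 with a 95% interval of -0.11 to 0.10. Sfrp2 was at 0.437, 0.542, 0.345 and 0.457 CPM in home cage water and 0.939, 0.927, 0.570 and 0.586 in learning water mice, without overlap, yet its log2 fold change of 0.76 was not called (SE 0.33, adjusted p = 0.370). In the caffeine groups Sfrp2 overlapped, at 0.267, 0.732, 0.823 and 0.614 CPM in home cage caffeine and 0.293, 0.514, 0.622 and 0.655 in learning caffeine mice. Sfrp4 was at 1.67, 2.26, 2.17 and 2.53 CPM in home cage water, 2.76, 2.197, 2.87 and 2.15 in home cage caffeine, 2.999, 2.30, 2.54 and 2.28 in learning water and 2.59, 2.33, 2.11 and 1.75 in learning caffeine mice, with an average response of 0.02 (95% interval -0.22 to 0.26).

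To evaluate whether chronic caffeine changed these genes, caffeine mice were compared with water mice at rest and after training. No member was called by edgeR or DESeq2 in either comparison or in their average, where edgeR called 0% of all genes. At an unadjusted p under 0.05 there were 2 members in the home cage (3.57% of all genes), 1 after training (3.93%) and 2 in the average (4.07%). In the home cage these were Sfrp5, with a log2 fold change of -1.59 (SE 0.49, unadjusted p = 0.00434, adjusted p = 0.997) over the mice described above, and Fzd4. Choroid plexus sums were 315 to 2416 CPM in home cage water and 199 to 516 in home cage caffeine mice. The part of that tissue in the Sfrp5 difference was not tested. Fzd4 was at 13.9, 14.7, 14.1 and 16.5 CPM in home cage water and 12.4, 13.3, 12.7 and 10.4 in home cage caffeine mice, without overlap. Its log2 fold change was -0.28 (SE 0.11, unadjusted p = 0.0164, adjusted p = 0.997) and -0.15 without the 3 libraries that stood apart. The same genes had an unadjusted p under 0.05 in the average caffeine difference, with -0.98 for Sfrp5 and -0.19 for Fzd4 (adjusted p = 0.985 for both), an average that uses the same home cage mice. After training it was Wnt9b, a ligand with a low level here, at 1.05, 1.32, 1.53 and 1.92 CPM in learning water and 0.826, 1.18, 0.662 and 1.26 in learning caffeine mice, with overlap and a log2 fold change of -0.56 (SE 0.24, unadjusted p = 0.0277, adjusted p = 0.999). Sfrp2 was next, with a log2 fold change of -0.53 (SE 0.31, unadjusted p = 0.0982).

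For the genes that changed with learning, the caffeine against water intervals were wide. They ran from -0.37 to 0.67 in the home cage and -0.88 to 0.20 after training for Wnt9a, from -0.18 to 0.58 and -0.58 to 0.20 for Fzd5, and from -0.38 to 0.07 and -0.12 to 0.33 for Fzd6. They ran from -0.15 to 0.32 and -0.38 to 0.08 for Fzd1, and from -0.69 to 0.16 and -0.40 to 0.46 for Sfrp1. For Sfrp5 they ran from -2.61 to -0.57 and -1.55 to 0.80, and its home cage interval alone left out 0. These intervals are not adjusted for the number of genes. For the steadier Wnt7b the intervals ran from -0.21 to 0.12 and -0.15 to 0.17, and for Porcn from -0.08 to 0.13 and -0.03 to 0.17. The median SE of a log2 fold change between 2 groups was 0.20 over the members and 0.10 over all genes, so the members were measured less precisely than a typical gene.

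Whether caffeine altered the learning response was tested as the difference between the 2 learning responses. No member was called by edgeR or DESeq2, where edgeR called 0% of all genes, and 2 members had an unadjusted p under 0.05, where 3.63% of all genes did. Dkk3 was one, with -0.12 under water and 0.12 under caffeine and a difference of 0.24 (SE 0.10, unadjusted p = 0.0330, adjusted p = 0.99997). Wnt9b was the other, with 0.51 under water and -0.25 under caffeine and a difference of -0.77 (SE 0.34, unadjusted p = 0.0386, adjusted p = 0.99997), where home cage water mice were at 0.715, 1.31, 0.792 and 1.18 CPM and home cage caffeine mice at 1.26, 1.16, 1.08 and 1.14. In 22 of 38 members the learning response was lower under caffeine than under water, with a median difference of -0.07 against 0.00 for all genes.

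The rest of the pathway was examined through a list of 67 genes in 5 groups, of which 66 were tested. The list held 9 other secretion and extracellular genes, 14 other receptors and genes of receptor turnover, 20 genes of the intracellular relay and destruction complex, 11 nuclear factors and 12 planar polarity genes among those tested. None was called in a caffeine against water comparison or in the difference between the learning responses by edgeR or DESeq2, with 3 in the home cage, 2 after training, 3 in the average and 4 in the difference at an unadjusted p under 0.05, where 3.57, 3.93, 4.07 and 3.63% of all genes were. Under water, 1 rose (Nkd2) and 1 fell (Reck) after learning, where 0.639 and 0.331% of all genes were called. Under caffeine, 2 rose (Nkd2 and Pygo2) and none fell, where 3.16 and 2.13% of all genes were called. Without the 3 libraries that stood apart, Nkd2 under caffeine was the 1 of these 4 calls that held. In the average, 8 rose and 2 fell, which is 12.1 and 3.03% of the list, where 7.81 and 6.71% of all genes were called.

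Nkd2, which binds Dishevelled and dampens Wnt signalling, was at 8.06, 8.19, 6.96 and 9.19 CPM in home cage water, 7.83, 8.79, 7.75 and 7.23 in home cage caffeine, 18.8, 12.9, 10.7 and 9.38 in learning water and 13.4, 12.3, 12.6 and 10.5 in learning caffeine mice. Every learning mouse lay above every home cage mouse. In edgeR the log2 fold change was 0.68 under water (SE 0.16, adjusted p = 0.0834), 0.63 under caffeine (SE 0.16, adjusted p = 0.0470) and 0.66 on average (SE 0.12, adjusted p = 0.00256). The highest learning water value was that of mouse 24, the library rich in oligodendrocyte markers, and without it the water response was 0.44 (adjusted p = 0.127) and the average 0.54, which was still called. The water call also ended without home cage water 6, 11 or 20, learning water 33 or 36 or learning caffeine 30 (adjusted p from 0.106 to 0.185), and the caffeine call without home cage caffeine 17 or learning caffeine 30 (adjusted p = 0.122 and 0.117). Without the 3 libraries that stood apart, Nkd2 was at 0.51 under water and not called (adjusted p = 0.133), and at 0.60 under caffeine (adjusted p = 0.0183) and 0.55 on average (adjusted p = 0.00213).

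Reck, which with Gpr124 lets endothelial cells respond to Wnt7a and Wnt7b, was at 17.1, 18.3, 18.8 and 19.2 CPM in home cage water and 15.1, 14.998, 12.7 and 13.4 in learning water mice, without overlap. Its log2 fold change was -0.38 under water (SE 0.09, adjusted p = 0.0658 by edgeR), a call that ended without home cage water 11 or 20 or learning water 33, 36 or 38 (adjusted p from 0.125 to 0.229) or without the 3 libraries that stood apart (-0.40, adjusted p = 0.138), and -0.27 on average (adjusted p = 0.0133). The 7 endothelial markers summed to 221 to 233 CPM in home cage water and 194 to 213 in learning water mice, also without overlap. None of these markers was called under water, and 1 (Cldn5) was called lower in the average. The part of endothelial cells in the Reck response was not tested. Pygo2, a nuclear partner of β-catenin, was at 49.8, 54.3, 48.8 and 48.4 CPM in home cage caffeine and 56.3, 58.4, 59.5 and 58.6 in learning caffeine mice, also without overlap. It rose by 0.21 on the log2 scale under caffeine (SE 0.06, adjusted p = 0.0631), a call that ended without home cage caffeine 17 or learning caffeine 30 or 40 (adjusted p from 0.111 to 0.148) or without the 3 libraries (0.20, adjusted p = 0.108), and by 0.19 on average (adjusted p = 0.0105, and 0.0489 without the 3 libraries). Prickle1, a planar polarity protein, was at 86.4, 93.7, 89.6 and 83.2 CPM in home cage water, 88.2, 85.2, 87.9 and 85.7 in home cage caffeine, 98.7, 96.4, 101 and 102 in learning water and 99.0, 94.7, 90.9 and 97.0 in learning caffeine mice. Its average response was 0.16 (SE 0.03, adjusted p = 0.00756), and 0.14 without the 3 libraries (adjusted p = 0.0272). The other genes that rose in the average were Apc (0.15) and Csnk1a1 (0.11) of the complex that destroys β-catenin, Prickle2 and Daam1 of the planar polarity branch (0.16 each), and Frzb (0.37). Apcdd1, a membrane inhibitor of Wnt signalling, fell (-0.28). Of the 10 average calls, those of Apc and Daam1 ended without the 3 libraries.

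Frzb, a secreted Wnt inhibitor of the Sfrp family that the naming rule left out, is singled out after its values were seen, since it moved opposite to Sfrp1. It was at 20.6, 26.0, 23.98 and 26.5 CPM in home cage water, 24.3, 22.02, 29.9 and 20.6 in home cage caffeine, 41.2, 28.4, 29.2 and 30.8 in learning water and 30.9, 32.8, 28.2 and 29.0 in learning caffeine mice. Only home cage caffeine 14 lay within the learning range, and the highest value was that of learning water 24. The average response was 0.37 (SE 0.09, adjusted p = 0.0171 by edgeR).

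**Figure D5:**
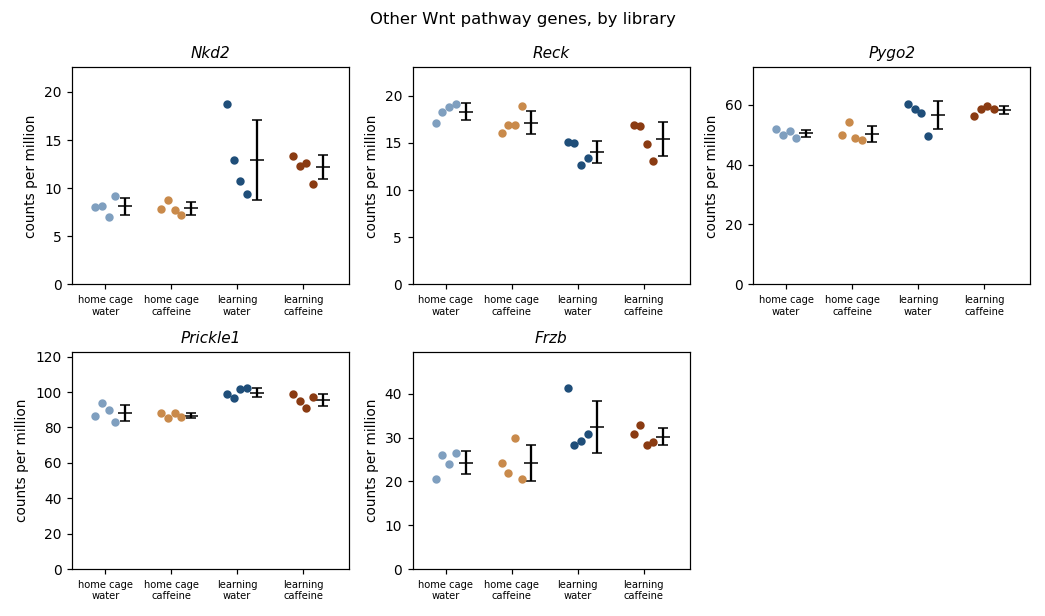
CPM of 5 other Wnt pathway genes, with 1 point per mouse and the mean with bars of 1 SD beside each group (n = 4). Nkd2 was at 6.96 to 9.19 in home cage mice and 9.38 to 18.8 in learning mice, and Reck was lower in learning than in home cage mice under water.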

How the data were processed

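RNA-Seq counts per gene were analysed for 16 libraries of mouse dorsal hippocampus. The authors prepared strand-specific libraries from mRNA, read them from 1 end, aligned these to mm10 with STAR and Bowtie 2, and counted unique alignments per Ensembl gene with HTSeq-count 0.6.1p1 in union mode; the deposited values are raw counts, not normalized and not pooled. The strand setting of the counting is not given in the sources used here. Genes were named through GENCODE M21, which matched 35247 of 35328 identifiers. Groups were taken from the sample titles. Counts were fitted with edgeR 4.0.16 in R 4.3.3 (TMM scaling, filterByExpr over the 4 groups, quasi-likelihood test, 1 mean per group, all 16 libraries), with Benjamini-Hochberg adjustment over the 17830 genes kept and a threshold of 0.1, the threshold used in the study. All 7 contrasts were two-sided. CPM were computed by edgeR from TMM-scaled library sizes, and CPM per kb divides by union exon length.

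The members and lists were chosen with earlier results of these data known, and no p-value was adjusted over a list alone. Members with values in each library were those called in any contrast, the 2 of smallest p in contrasts without calls, and the 3 of highest level per kb in each role. Other pathway genes were named where a contrast had 8 or fewer calls, and otherwise as the 3 of smallest p. Replicates are separate mice. All 24 pairs of libraries within groups differed by more than sampling noise (chi-square of 5.50 to 32.3 per degree of freedom). There were no molecular identifiers, so reads may include copies. The microglia marker list is not reported here. The fit was tested on simulated data. Alternatives were DESeq2 1.42.0 (Wald test), DESeq2 size factors in edgeR, filters of at least 1 count in total or 10 in every library, only the 8 libraries compared, an adjusted p under 0.05, each library left out in turn, and 3 libraries left out together.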

Additional observations from a re-analysis of the deposited data

Results flagged for a closer look

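In 6 of 140 groups of 4 mice, the highest or lowest value stood far from the other mice of its group by Dixon's test, which chance does in about 1 of 20 groups. Among the members, Wnt7a was at 14.1 CPM in learning water 33 against 11.6 to 12.0 in the other learning water mice. Sfrp1 was at 3.91 CPM in learning water 24 against 2.36 to 2.61, and without that mouse the Sfrp1 response under water was -0.79 on the log2 scale and was called by edgeR (adjusted p = 0.0957).

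The other values apart were sums over cell type markers. Oligodendrocyte markers stood at 11735 CPM in learning water 24 against 5043 to 5814, and at 6860 CPM in learning caffeine 22 against 4897 to 5082. CA3 markers stood at 443 CPM in learning caffeine 22 against 352 to 358. Medial habenula markers stood at 32.1 CPM in home cage caffeine 17 against 44.2 to 44.6.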

How the results depend on the processing

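No paired analysis was possible because the animal numbers differ between all groups, so no 2 groups share a replicate number. No result changed direction. The count of Wnt members called under water was 1, and it was 2 by DESeq2 (with Fzd1), 3 with at least 1 count in total (with Wnt9a and Sfrp5), and 0 with only the 8 libraries compared, without the 3 libraries that stood apart, or at an adjusted p under 0.05. Leaving out 1 library gave 0 to 1. Under caffeine it was 2, and 1 with only the 8 libraries or at 0.05 (Wnt9a in both), with 1 to 2 when 1 library was left out. In the average it was 6, and 4 to 8 over all alternatives. DESeq2 and the filter of at least 1 count in total added Lrp6. Leaving out the 3 libraries that stood apart added Fzd4, Fzd8 and Wnt11 and lost Sfrp5. Sfrp1 and Sfrp5 were lost at 0.05. Of the other pathway genes, 2 were called under water against 4 by DESeq2, 1 with the 8 libraries, 0 without the 3 libraries and 0 at 0.05, and 0 to 3 when 1 library was left out. Under caffeine 2 were called against 8 by DESeq2, 1 without the 3 libraries and 1 at 0.05, and 0 to 5 when 1 library was left out, with 0 without home cage caffeine 17 or learning caffeine 30 and 5 without learning water 24. In the average 10 were called against 6 at 0.05, 14 by DESeq2 and 7 to 14 when 1 library was left out. The cause of these moves was not tested. All caffeine comparisons and the difference between responses stayed at 0 in every alternative run. Of 740 fold changes recomputed under the alternatives, 672 kept their side of the threshold, 64 lost it and 4 gained it. Sfrp5 could not be tested with at least 10 counts in every library. The low members Wnt6, Wnt8b and Sfrp5 have the widest intervals and also varied most between mice. The part of depth in this was not tested.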
